A study of Mus musculus with 6 samples.

Results

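The mouse mitochondrial genome encodes 37 annotated genes, and 10 of them were examined here, out of 50686 gene identifiers in the count files: the protein-coding genes mt-Nd1, mt-Nd2, mt-Co1, mt-Co2, mt-Nd4, mt-Nd5, mt-Nd6 and mt-Cytb and the ribosomal RNA genes mt-Rnr1 and mt-Rnr2. They were picked by symbol and matched to their Ensembl identifiers. The rule uses no measured value, although it was written with earlier results of these data known. All cells were induced pluripotent stem cells (iPSCs) that had been reprogrammed from mouse gingival fibroblasts, grown into embryoid bodies with retinoic acid, attached to a dish and kept in serum-free medium for 24 h. The 3 ICF samples received intermittent compressive force of 1.5 g per square centimetre at 0.23 Hz during that time, and the 3 Control samples stayed unloaded. The sample labels number the samples of each group as donors 1 to 3. That number is the replicate number used here, and since the methods speak of independent experiments and not of donors, the p-values measure the spread between these samples.

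Mitochondrial DNA is copied into long RNAs from both strands, which are then cut into messenger, ribosomal and transfer RNAs. The transcript named after the heavy strand holds both ribosomal RNAs and all messengers except mt-Nd6, which lies on the transcript named after the light strand. All the proteins made from these messengers are subunits of the respiratory chain or of ATP synthase. The question was whether the RNAs of the heavy-strand transcript and mt-Nd6 moved together under ICF.

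Transcripts from opposite strands differ in base composition, and the first 60 bases of mt-Nd6 and of 3 heavy-strand members are shown to make that visible, with G in capitals (GENCODE M21, GRCm38). These are mt-Nd6 at chrM:14011-14070 on the minus strand, and mt-Cytb at chrM:14145-14204, mt-Nd5 at chrM:11742-11801 and mt-Nd1 at chrM:2751-2810 on the plus strand.
mt-Nd6: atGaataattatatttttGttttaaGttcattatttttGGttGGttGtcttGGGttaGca
mt-Cytb: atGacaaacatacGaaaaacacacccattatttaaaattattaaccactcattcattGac
mt-Nd5: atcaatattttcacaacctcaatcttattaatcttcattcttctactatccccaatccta
mt-Nd1: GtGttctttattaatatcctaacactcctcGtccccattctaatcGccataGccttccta
The stretch of mt-Nd6 held 12 G, against 3 in mt-Cytb, 0 in mt-Nd5 and 5 in mt-Nd1. Over its whole length mt-Nd6 had 28.1% G and 5.97% C. The other 9 members had 8.0% to 16.2% G and more C than G in each case, by 3.03 to 19.8 percentage points.

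Genes mt-Nd5 and mt-Nd6 converge, and their annotated 3′ ends overlap by 14 bases on opposite strands. The last 45 bases of each are shown because reads there could be told apart only by strand, with the shared bases in capitals (mt-Nd5, chrM:13521-13565, plus strand, and mt-Nd6, chrM:13552-13596, minus strand).
mt-Nd5: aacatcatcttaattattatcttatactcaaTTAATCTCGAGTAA
mt-Nd6: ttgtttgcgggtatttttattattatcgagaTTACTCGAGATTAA
All of mt-Nd6 lies between mt-Nd5 and mt-Cytb or in that overlap. Over its whole length it could therefore be told from opposite-strand RNA of the heavy-strand transcript only by strand. Whether such RNA entered the counts of mt-Nd6 was not tested. The libraries were strand-specific by the study's methods, whereas the strand setting of the counting is not given in the sources used here. As a check, 223 genes of at least 300 exon bases lie wholly under exons of the opposite strand. In 19 of these the count was at least 10 in every library, and in 7 at least 100.

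Gene counts per sample summed to between 28711166 and 34194413. Replicate 3 stood apart in both groups. Entries that HTSeq assigned to no gene feature made up 6.24% (Control) and 6.04% (ICF) of the total, against 4.09% to 4.52% in the other 4 libraries. Malat1, a nuclear non-coding RNA, was at 642 and 843 CPM (counts scaled to a common library size), against 269 to 410. Multiples of 4 made up 89.0% of the nonzero counts of ICF replicate 3, against 20.3% to 21.5% elsewhere. That library had 20802 genes with a count, against 24340 to 24889 elsewhere. Whether its counts equal its reads was not tested. Libraries of a group nonetheless differed by more than counting noise, although steps of 4 raise that difference by themselves in ICF replicate 3. All 6 were used, and fits without ICF replicate 3 were run as alternatives. Of the marker lists, 8 pluripotency genes summed to 3050 to 3653 CPM in Control and 2882 to 3331 CPM with ICF, and none of the 8 passed the test, edgeR's quasi-likelihood test with Benjamini-Hochberg adjustment at 0.05 over 16729 genes. The 9 mesenchymal markers summed to 227 to 256 CPM in Control and 262 to 282 CPM with ICF (3 rose, where 3.47% of all genes did), the 7 neural markers to 284 to 306 and 227 to 266 CPM (1 fell, where 4.38% of all genes did), the 6 endoderm markers to 416 to 430 and 409 to 446 CPM (1 fell), and the 3 cardiac markers to 3.27 to 4.48 and 7.44 to 8.38 CPM (1 rose). The cardiac gene that rose was Tnnt2 (log2 change 1.60), and Myh6 (-0.15) and Nkx2-5 (-0.08) did not pass. No marker was at 0 in all libraries. The mesenchymal, neural and cardiac sums did not overlap between groups, and their part in the results was not tested.

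All 10 members passed the filter on low counts. With ICF, mt-Nd6 and mt-Rnr1 fell and mt-Cytb and mt-Nd5 rose, so 4 of 10 members were called, where 7.85% of all genes were called (3.47% higher and 4.38% lower). The same 4 members were those whose groups did not overlap, 2 with every ICF sample above and 2 with every ICF sample below Control, which held for 15.6% and 15.7% of all genes (31.4% in either direction). At an unadjusted p under 0.05, 5 members passed (25.6% of genes). DESeq2 called 5 members (13.2% of genes), and the fit with the replicate number as a block called 7 (29.9% of genes). All values are TMM-normalized CPM, with library sizes scaled by edgeR's trimmed mean of M values, and standard errors come from the spread of log2 CPM within the groups. In such bulk samples, fewer cells of a type and less RNA per cell cannot be told apart.

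Only mt-Nd6, a complex I subunit, is a light-strand messenger. It was counted at 141, 131 and 98.6 CPM in Control replicates 1, 2 and 3 and at 63.8, 63.2 and 45.7 CPM in ICF replicates 1, 2 and 3. Every ICF sample was below every Control sample, and replicate 3 was the lowest of both groups. The means were 124 ± 22.3 CPM (SD, n = 3) and 57.6 ± 10.3 CPM (SD, n = 3), so Control was 2.15 times as high. The log2 fold change was -1.10 with a standard error of 0.22 (edgeR adjusted p = 0.00538). Within same-numbered pairs the log2 difference was -1.15, -1.05 and -1.11. These levels rest on counts of 4131, 4096 and 2835 in Control and 2217, 2088 and 1324 with ICF. Whether the last of these, from ICF replicate 3, equals a number of reads was not tested. The fall passed the test under all 15 alternative settings, from -1.24 to -0.95 on the log2 scale.

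**Figure D1:**
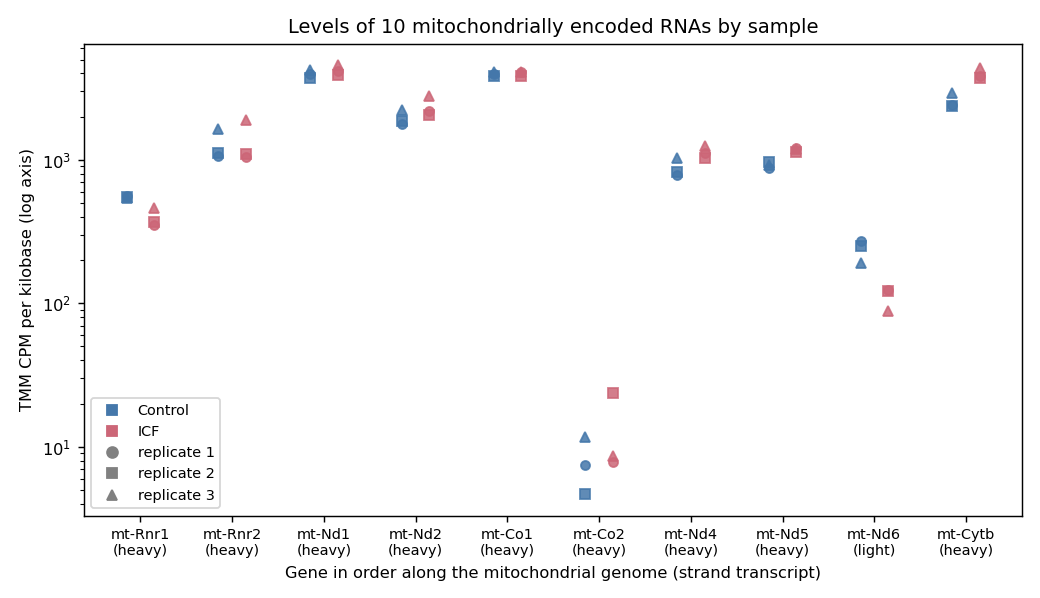
Level of each member in each sample, in TMM-normalized CPM per kilobase of gene (log axis), with genes in the order of the mitochondrial genome. Colour marks the group and shape the replicate, and the ICF points of mt-Nd6 (88.1 to 123 CPM per kilobase) lie below its Control points (190 to 272).

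Of the 2 heavy-strand messengers that rose, the larger change was in mt-Cytb, the cytochrome b subunit of complex III and the last protein gene of that transcript. Its level was 2780, 2729 and 3357 CPM in Control and 4400, 4225 and 5006 CPM with ICF. Every ICF sample was above every Control sample, with replicate 3 the highest of each group. The fold was 1.54, a log2 change of 0.62 with a standard error of 0.12 (edgeR adjusted p = 0.00762), and the pairs differed by 0.66, 0.63 and 0.58. The call was lost in 1 of 15 alternatives, without Control replicate 2 (0.57, edgeR adjusted p = 0.0527).

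The other complex I messengers of the heavy-strand transcript were mt-Nd5, mt-Nd4, mt-Nd2 and mt-Nd1. For mt-Nd5 the level was 1612, 1757 and 1682 CPM in Control and 2189, 2062 and 2164 CPM with ICF. The groups did not overlap, and mt-Nd5 rose by a log2 change of 0.34 with a standard error of 0.04 (edgeR adjusted p = 0.0114). That call was lost without Control replicate 1 (0.31, edgeR adjusted p = 0.0617), without Control replicate 2 (0.38, adjusted p = 0.0507) and without ICF replicate 1 (0.33, adjusted p = 0.0584).

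In mt-Nd4 the level was 1080, 1128 and 1420 CPM in Control and 1540, 1417 and 1716 CPM with ICF. The groups overlapped only in that Control replicate 3 lay just above ICF replicate 2. The log2 change of 0.37 (standard error 0.15) missed the threshold (edgeR adjusted p = 0.0806). It passed with the replicate block (0.37, edgeR adjusted p = 3.5e-07) and in DESeq2 (adjusted p = 0.0174), and the pairs differed by 0.51, 0.33 and 0.27.

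Levels of mt-Nd2 were 1858, 1945 and 2313 CPM in Control and 2280, 2131 and 2887 CPM with ICF. Replicate 3 was the highest of both groups, and the groups overlapped. The log2 change was 0.25 with a standard error of 0.16 (edgeR adjusted p = 0.234), which passed with the replicate block (0.25, edgeR adjusted p = 0.00011). For mt-Nd1, the first protein gene of the heavy-strand transcript, the levels were 3766, 3574 and 4034 CPM in Control and 3999, 3753 and 4356 CPM with ICF. These overlapped, and the log2 change of 0.09 (standard error 0.08) did not pass without the block (edgeR adjusted p = 0.489) or with it (0.130).

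The 2 complex IV subunits among the members stood at very different levels. The catalytic subunit gene mt-Co1 was at 6165, 5965 and 6291 CPM in Control and 6298, 5898 and 6279 CPM with ICF. Its groups covered almost the same range, and the log2 change was 0.00 with a standard error of 0.04 (edgeR adjusted p = 0.974). Subunit gene mt-Co2 was at 5.10, 3.19 and 7.97 CPM in Control and 5.38, 16.2 and 5.90 CPM with ICF, from counts of only 100 to 535. ICF replicate 2 was the highest and the other 5 samples overlapped. The log2 change of 0.76 had a standard error of 0.64 (edgeR adjusted p = 0.333), the pairs differed by 0.08, 2.34 and -0.43, and the fit with the replicate block called it (0.67, edgeR adjusted p = 0.0322), whereas DESeq2 with the same block did not (0.62, DESeq2 adjusted p = 0.637). Without ICF replicate 2 the log2 change was 0.07.

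Both ribosomal RNAs lie at the start of the heavy-strand transcript, and mt-Rnr1 alone was called. Whether their changes differ was not tested. The small-subunit RNA mt-Rnr1 was at 535, 525 and 515 CPM in Control and 335, 354 and 440 CPM with ICF. Control samples lay close together, and every ICF sample was below them. It fell by 0.48 on the log2 scale with a standard error of 0.12 (edgeR adjusted p = 0.0213), and the pairs differed by -0.68, -0.57 and -0.23. The call was lost without Control replicate 1 (-0.47, edgeR adjusted p = 0.0922), Control replicate 2 (-0.48, 0.0974), ICF replicate 1 (-0.40, 0.0806) or ICF replicate 2 (-0.43, 0.0749).

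The large-subunit RNA mt-Rnr2 was at 1686, 1765 and 2582 CPM in Control and 1657, 1728 and 2987 CPM with ICF. Replicate 3 was high in both groups, and the groups overlapped. The log2 change was 0.08 with a standard error of 0.34 (edgeR adjusted p = 0.869), and its sign turned without ICF replicate 3 (-0.24) and without both replicate 3 libraries (-0.03).

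**Figure D2:**
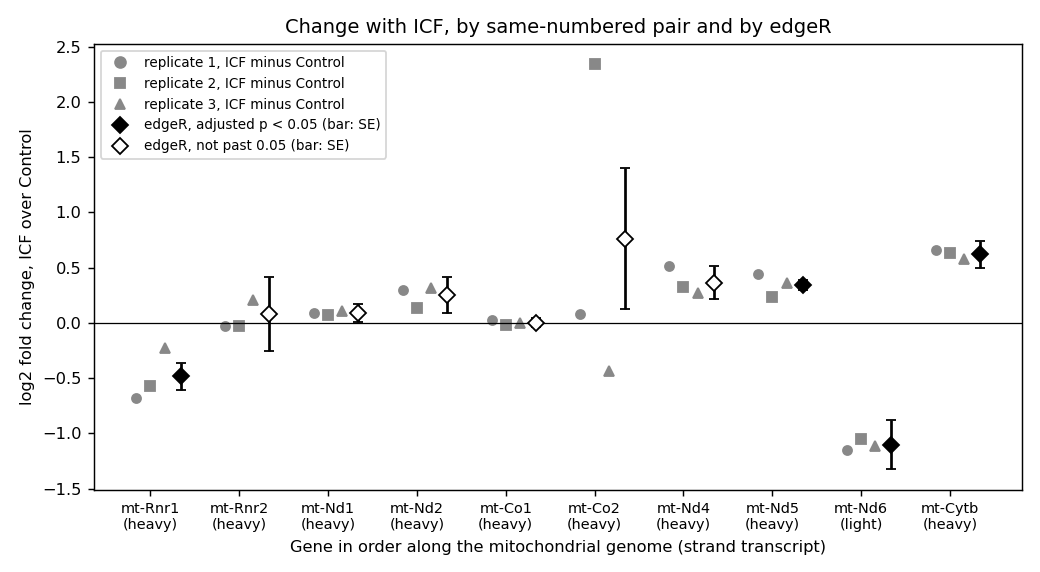
Log2 fold change of each member, ICF over Control, in the order of the mitochondrial genome. Grey points are the same-numbered pairs and diamonds the edgeR estimate with its standard error, filled where the adjusted p was under 0.05; mt-Nd6 (-1.10) and mt-Rnr1 (-0.48) lie below 0 and mt-Nd5 (0.34) and mt-Cytb (0.62) above.

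The 7 heavy-strand messengers among the members had a median log2 change of 0.34, and the 10 members one of 0.17, against 0.003 over all genes tested. The strands were then compared within each library as the log2 ratio of the summed counts per kilobase of these 7 messengers to mt-Nd6, which does not depend on library size. It was 5.67, 5.76 and 6.34 in Control and 7.08, 7.01 and 7.69 with ICF, or 50.7, 54.1 and 81.1 against 135, 129 and 207 on a linear scale. Every ICF library was above every Control library. The difference was 1.34 with a standard error of 0.30 (exact two-sided permutation p = 0.1, the smallest that 3 samples against 3 can give), and within the pairs it was 1.41, 1.25 and 1.35. Taken gene by gene, the ratio to mt-Nd6 did not overlap between groups for 8 of 9 heavy-strand members, the ribosomal RNA mt-Rnr2 being the exception. All these ratios share mt-Nd6 as denominator, and the ratio to mt-Nd6 was higher without overlap for 86% of all other genes tested, so this count mostly restates the fall of mt-Nd6. Replicate 3 had the highest ratio of each group. Whether Control and ICF libraries took up mt-Nd6 alike was not tested.

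Along the heavy-strand transcript, the last protein gene was compared with the first. The log2 ratio of mt-Cytb to mt-Nd1 per kilobase was -0.70, -0.65 and -0.52 in Control and -0.12, -0.09 and -0.06 with ICF, or 0.618, 0.639 and 0.696 against 0.920, 0.942 and 0.961. The groups did not overlap. The difference was 0.53 with a standard error of 0.05 (exact two-sided permutation p = 0.1, again the smallest possible). Since mt-Nd1 itself changed by 0.09 and mt-Cytb by 0.62, this ratio mostly restates the rise of mt-Cytb. As a description, the Spearman correlation between a messenger's place in the genome and its log2 change was 0.64 over the 7 messengers and 0.77 over 6 without mt-Co2. The changes did not climb steadily, with 0.25 in mt-Nd2, 0.00 in mt-Co1, 0.37 in mt-Nd4 and 0.34 in mt-Nd5 between those 2 ends. These genes share their libraries and are not independent.

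The ribosomal RNAs were also set against the heavy-strand messengers. The log2 ratio of summed mt-Rnr1 and mt-Rnr2 to the 7 messengers, per kilobase, was -3.09, -3.03 and -2.83 in Control and -3.57, -3.42 and -2.96 with ICF. ICF replicate 3 lay within the Control range, so the groups overlapped, and the difference of -0.33 (standard error 0.20) gave an exact two-sided permutation p of 0.3. ICF was the lower in each pair (-0.48, -0.39 and -0.13).

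**Figure D3:**
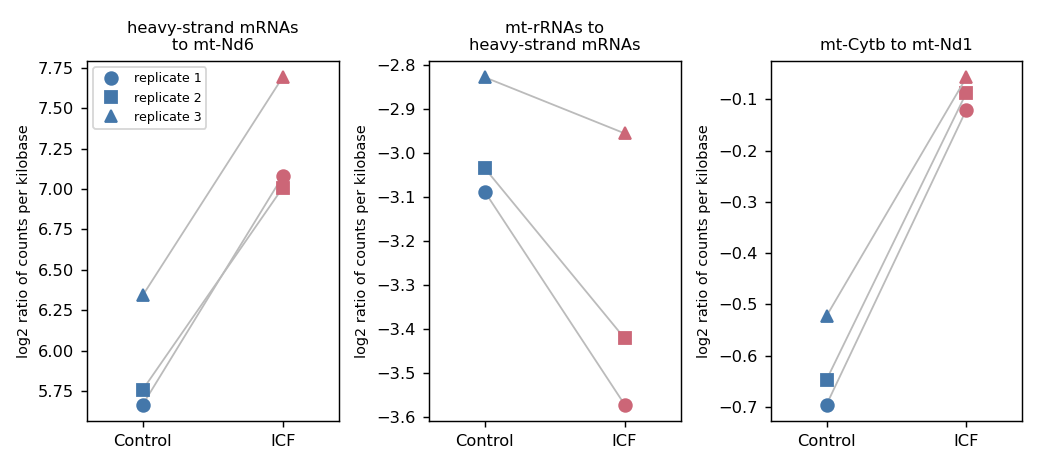
Log2 ratios of counts per kilobase in each library for heavy-strand messengers against mt-Nd6, ribosomal RNAs against heavy-strand messengers, and mt-Cytb against mt-Nd1, with lines joining same-numbered samples. The first and last ratios do not overlap between groups, whereas ICF replicate 3 (-2.96) lies among the Control values of the middle one.

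Together the 10 members took 1.93%, 1.92% and 2.23% of gene counts in Control and 2.31%, 2.18% and 2.60% with ICF. Control replicate 3 lay above ICF replicate 2, so the groups overlapped. The difference was 0.34 percentage points with a standard error of 0.16 (exact two-sided permutation p = 0.2). The 95% exact binomial interval of a single library was at most 0.0116 points wide and covers counting error only. That interval takes each count as a read, which was not tested for ICF replicate 3, the library with the widest interval. Within the members, mt-Nd6 took 0.720%, 0.670% and 0.442% of the counts in Control and 0.280%, 0.292% and 0.177% with ICF.

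Per kilobase, the Control order of mean levels was mt-Co1 (3974 CPM per kilobase), mt-Nd1 (3962), mt-Cytb (2584), mt-Nd2 (1964), mt-Rnr2 (1271), mt-Nd5 (923), mt-Nd4 (878), mt-Rnr1 (550), mt-Nd6 (238) and mt-Co2 (7.92). Neighbours whose ranges over 3 samples overlapped were mt-Co1 with mt-Nd1 and mt-Nd5 with mt-Nd4. With ICF the order began with mt-Nd1 (4217 CPM per kilobase), mt-Co1 (3986) and mt-Cytb (3972), and the range of each overlapped that of the next, whereas in Control the range of mt-Cytb lay below those of both others. The ranges of mt-Rnr2 and mt-Nd5 also overlapped with ICF, as did those of mt-Nd5 and mt-Nd4. Levels of the ribosomal RNAs and of mt-Nd6 against the others also depend on how the libraries took up RNAs with different 3′ tails. Their changes with ICF, and the ratios built on them, could move with such uptake too, which was not tested.

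The member at the lowest level, mt-Co2, was also the one with the most sequence shared with the nuclear genome. Reads with several possible alignments are dropped by HTSeq. They made up 29.5% to 31.3% of its entries per library, gene counts and summary rows together. Whether a read with several alignments entered this sum more than once was not tested. Of the 75-base stretches of mt-Co2, a read's length, 99.5% (607 of 610) also occur in annotated nuclear pseudogenes that are copies of mitochondrial DNA. One pair of identical stretches is shown for this reason (GRCm38), from mt-Co2 at chrM:7013-7087 on the plus strand and from Gm28661 at chr1:24615491-24615565 on the minus strand, where no base differs and none is in capitals.
mt-Co2: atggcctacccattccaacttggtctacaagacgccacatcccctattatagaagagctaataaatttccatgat
Gm28661: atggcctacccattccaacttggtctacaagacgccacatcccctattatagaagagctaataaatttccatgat
Over 681 aligned bases the gene and this copy had 0 differences, so the counts of mt-Co2 are uncertain. Part of a copy of mt-Co1 is shown because the bases differ there, with differing bases in capitals, from mt-Co1 at chrM:5787-5861 on the plus strand and Gm13340 at chr2:22589114-22589188 on the minus strand.
mt-Co1: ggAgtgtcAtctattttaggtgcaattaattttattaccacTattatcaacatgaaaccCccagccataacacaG
Gm13340: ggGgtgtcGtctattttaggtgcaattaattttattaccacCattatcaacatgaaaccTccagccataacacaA
These 75 bases hold 5 differences, and the whole gene 37 over 1545 aligned bases, while 220 of the 75-base stretches of mt-Co1 were identical in Gm13340.

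Among the other members the share of such stretches was 61.5% in mt-Nd4, 39.8% in mt-Co1, 5.71% in mt-Nd2 and 1.66% in mt-Nd5. It was 0% in mt-Nd1, mt-Nd6, mt-Cytb, mt-Rnr1 and mt-Rnr2. The falls of mt-Nd6 and mt-Rnr1 and the rise of mt-Cytb were thus measured on sequence without an identical stretch in an annotated copy. The search covered annotated transcripts and identical stretches only, so a copy with differing bases throughout could score 0%. Whether these members have such a copy was not tested. The nuclear copies themselves had low counts. Reads that also align to the mitochondrial gene are dropped there too, so these counts can understate the copies. Among copies of the members, the highest counts per library were those of Gm13340 (291 to 436), Gm13341, a copy of mt-Co2 (64 to 102), and Gm29216, a copy of mt-Co1 (16 to 35). Per 1000 bases where a read can start without such a match, mt-Nd4 was at 2409 CPM in Control and 3103 CPM with ICF, and mt-Co1 at 6938 and 6959 CPM.

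**Figure D4:**
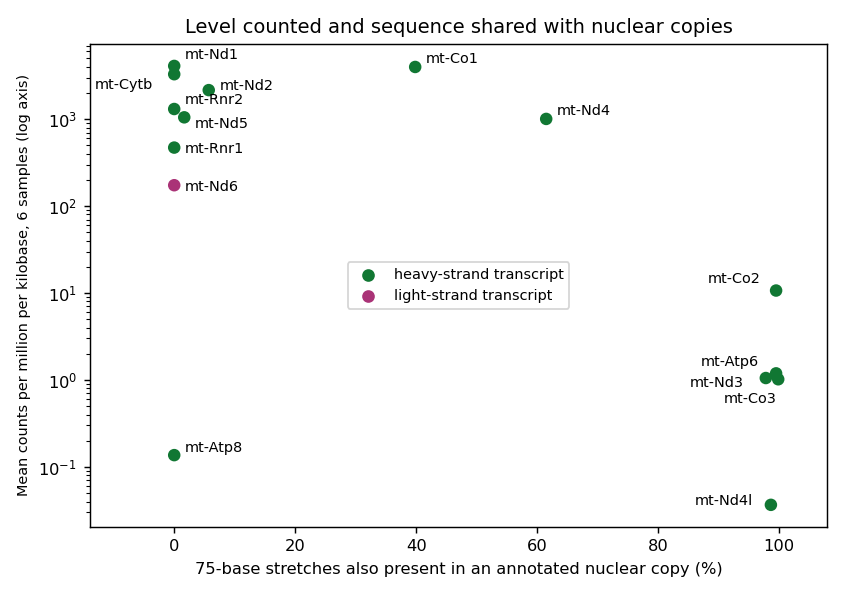
Mean level over 6 samples, in CPM per kilobase (log axis), against the share of 75-base stretches also present in an annotated nuclear copy, for the protein-coding and ribosomal RNA genes of the mitochondrial genome. Green marks the heavy-strand and purple the light-strand transcript, and the genes at 97.8% to 99.9% sharing, mt-Co2 among them, lie far below the other members. So does mt-Atp8, at 0% sharing with an annotated copy.

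Of the remaining mitochondrial genes, the 5 messengers mt-Atp8, mt-Atp6, mt-Co3, mt-Nd3 and mt-Nd4l had counts of at most 67 in a library. Neither of the 2 that passed the filter was called. Of the 5, mt-Atp8 shared 0% of its 75-base stretches with an annotated copy and the other 4 shared 97.8% to 99.9%. Copies without an annotation, of mt-Atp8 or of others, were not searched. The 22 transfer RNA genes lay 14 on the heavy-strand and 8 on the light-strand transcript. Their counts were at most 648, in ICF replicate 3, and 9 of the genes had none in any library. edgeR tested 7 of them and called 0, with 0 at an unadjusted p under 0.05 and 0 in DESeq2. With the replicate block it called mt-Tt, the threonine transfer RNA gene beside mt-Cytb (3.93, 3.32 and 10.1 CPM in Control and 5.01, 5.05 and 17.7 CPM with ICF; log2 change 0.62, edgeR adjusted p = 0.00024). Its replicate 3 was the highest of both groups.

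The nuclear genes that act on mitochondrial DNA and RNA were read from 3 lists. Of these, 4 of 70 tested genes were called, 5.71%, against 7.85% of all genes. With the replicate block 13 were called, 18.6%, against 29.9% of all genes. The median log2 change was 0.03, against 0.003 over all genes.

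None of the 16 genes of mitochondrial transcription was called by edgeR, 1 had an unadjusted p under 0.05, and DESeq2 called 0. With the replicate block, edgeR called Mrpl12, a ribosomal protein also known to bind the mitochondrial RNA polymerase (log2 change 0.22, adjusted p = 0.0019). The genes with the highest counts were Pprc1, a coactivator of nuclear respiratory factors, at 211 ± 3.01 CPM (SD, n = 3) in Control and 214 ± 7.67 CPM (SD, n = 3) with ICF, and Gabpa, a subunit of such a factor, at 129 ± 5.50 and 125 ± 12.2 CPM. The polymerase gene Polrmt and its factor Tfam, which binds both promoter regions, were singled out after their values were seen. Tfam was at 121, 127 and 122 CPM in Control and 120, 122 and 129 CPM with ICF, and Polrmt at 54.3, 53.1 and 49.9 against 51.5, 56.6 and 44.4 CPM. Both overlapped between groups, with log2 changes of 0.00 and -0.04.

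Of 34 genes of RNA processing and decay, 2 rose and 1 fell, 8.82% of those tested. With the replicate block 9 were called (5 higher and 4 lower), 26.5%, against 29.9% of all genes, and DESeq2 called 4. Fastkd2, a protein of mitochondrial RNA granules, was at 51.1, 49.0 and 55.0 CPM in Control and 66.1, 63.8 and 73.9 CPM with ICF (log2 change 0.39, edgeR adjusted p = 0.0199). Rexo2, an exonuclease for short RNA fragments, was at 52.3, 50.4 and 57.1 CPM in Control and 68.1, 70.0 and 68.8 CPM with ICF (0.37, edgeR adjusted p = 0.0135). Grsf1, an RNA-granule protein named for its binding to G-rich sequence, was at 139, 142 and 135 CPM in Control and 109, 110 and 117 CPM with ICF (-0.31, edgeR adjusted p = 0.0161). The groups did not overlap in any of the 3. The genes with the highest counts were Lrpprc, which stabilizes mitochondrial messengers, at 178 ± 2.27 CPM (SD, n = 3) in Control and 173 ± 2.90 CPM (SD, n = 3) with ICF, and Ptcd3, a mitochondrial ribosomal protein, at 134 ± 9.20 and 144 ± 10.3 CPM, and neither passed.

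Among genes of replication and the nucleoid, 20 of 21 were tested and 1 fell, Lonp1, a protease of the mitochondrial matrix that can degrade Tfam. It was at 249, 239 and 222 CPM in Control and 189, 193 and 196 CPM with ICF, without overlap (log2 change -0.30, edgeR adjusted p = 0.0230). Slc25a36, a carrier of pyrimidine nucleotides and the other gene with the highest counts, was at 156 ± 8.42 and 167 ± 14.0 CPM (SD, n = 3 each) and did not pass. All 4 calls in the lists were lost without Control replicate 1, without Control replicate 2 and without ICF replicate 1, with edgeR adjusted p of 0.0606 to 0.122, and those of Rexo2, Grsf1 and Lonp1 also without ICF replicate 2 (0.0524, 0.0663 and 0.0787).

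**Figure D5:**
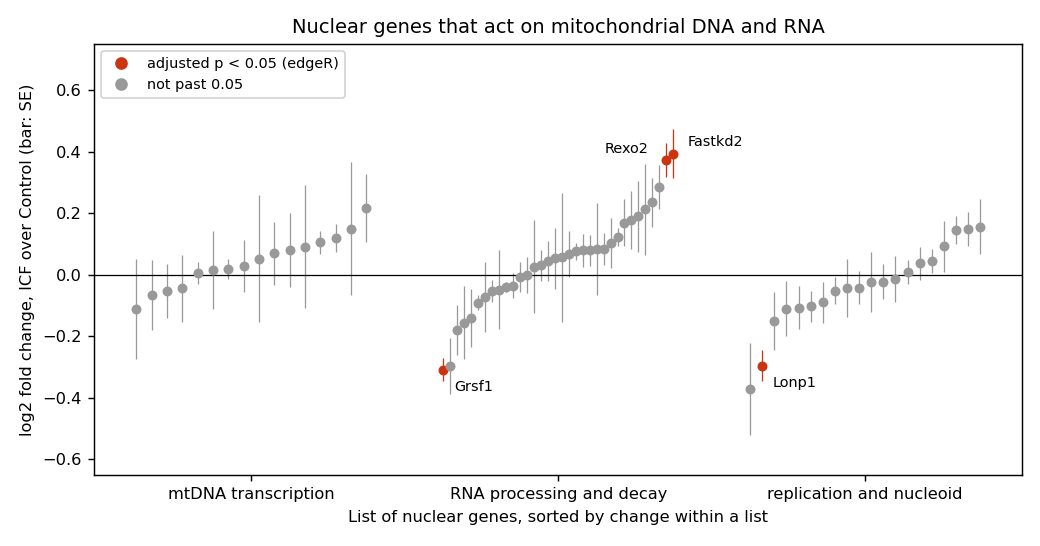
Log2 fold change with standard error, ICF over Control, for nuclear genes of mitochondrial transcription, RNA processing and decay, and replication, sorted within each list. Red points had an edgeR adjusted p under 0.05: Fastkd2 (0.39) and Rexo2 (0.37) above 0 and Grsf1 (-0.31) and Lonp1 (-0.30) below.

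Genes with the most similar pattern to mt-Nd6 over the 6 samples were sought among 11912 nuclear genes averaging 100 counts or more, by the Pearson correlation of log2 CPM. They were Nrg2, Ubr7, Itpr3, Slc20a2 and Camk2n1, with r of 0.997 to 0.999 and log2 changes of -0.72 to -0.27. For the mean of the 7 heavy-strand messengers they were Mkks, Trp53inp2, Gm15542, Uap1l1 and Gm9523, with r of 0.987 to 0.997 and log2 changes of 0.14 to 0.40. The highest r among so many genes and so few samples describes these libraries only.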

How the data were processed

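RNA sequencing was analysed in 3 Control and 3 ICF samples. Per the study's methods, strand-specific mRNA libraries were read singly for 75 cycles, filtered with Trimmomatic, aligned with HISAT2 and counted per gene with HTSeq, and the authors deposited raw counts for each sample. Versions of these tools, the annotation and the strand setting of the counting are not given in the sources used here, and the processing notes list GRCm38 and a human build without roles. The methods name the Ribospin II kit for RNA extraction, the labels an RNeasy kit. The HTSeq summary rows (29.5% to 31.3% of entries not uniquely aligned, 0.898% to 0.960% ambiguous) were left out of library sizes.

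GENCODE M21 (GRCm38) held 50462 of 50686 identifiers. The deposited counts were tested with edgeR 4.0.16 in R 4.3.3 (TMM, filterByExpr by group, quasi-likelihood, Benjamini-Hochberg adjustment over all tested genes, threshold 0.05). Ratios and shares were tested over samples by exact permutation. On simulated counts for this comparison (16543 genes past the filter, 200 changed, dispersion 0.0105), 85% of 1.5-fold and 100% of 2-fold changes were recovered and 1.6% of calls were false. The changed genes averaged 100 counts or more, and all genes had the same dispersion. No difference of replicate 3 and no steps of 4 were simulated, so these rates need not hold for the real libraries.

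Pairing follows the donor numbers in the labels. Over genes, same-numbered deviations from the group means correlated by 0.15, 0.20 and 0.38, and others by -0.34 to 0.26. The alternatives were DESeq2 1.42.0, RLE factors, normalization without mitochondrial genes, looser and stricter filters (1 count in any sample, or 10 or more in each), the replicate block, ICF replicate 3 divided by 4, both replicate 3 libraries left out, each sample left out, and other gene choices for ratios and shares. The members and lists were chosen with earlier results of these data known. Named genes were all members, called genes of each nuclear list, the 2 with the highest mean count per list, the 5 most like mt-Nd6 and the 5 most like the heavy-strand messengers, and the 3 nuclear copies of members with the most counts.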

Additional observations from a re-analysis of the deposited data

How the results depend on the processing

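The count of members called (4 of 10) was 7 with the replicate block, 7 without both replicate 3 libraries, and 1 to 5 when each sample was left out, the low counts coming without Control replicate 1 (2), Control replicate 2 (1) and ICF replicate 1 (2). The count of nuclear list genes called (4) was 13 with the block, 7 in DESeq2 with the block, 15 without both replicate 3 libraries, and 0 to 6 when each sample was left out. Over all genes the count was 1313, against 5006 with the block, 3020 in DESeq2 with the block, 5093 without both replicate 3 libraries, and 300 to 1652 with 1 sample left out. The cause was not tested. The sign turned for mt-Rnr2 without both replicate 3 libraries (-0.028, and -0.24 to 0.30 with 1 sample left out) and for mt-Co1 in DESeq2 (-0.0014), in DESeq2 with the block (-0.0017) and with 1 sample left out (-0.017 to 0.039), and neither gene was called in any setting. The 3 ratios kept their direction under all alternatives, namely 1.12 to 1.55 for heavy-strand messengers to mt-Nd6, -0.51 to -0.20 for ribosomal RNAs to messengers and 0.50 to 0.58 for mt-Cytb to mt-Nd1, as did the share of counts (0.22 to 0.44 points). The smallest p of these tests is 0.25 over 3 pairs and 0.333 with 2 samples against 2. Depth limits mt-Co2 and the transfer RNAs, and the steps of 4 in ICF replicate 3 limit its low counts.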

Other observations

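A ratio within the ribosomal RNAs was computed after their values had been seen, so it carries no test. The log2 ratio of mt-Rnr2 to mt-Rnr1 per kilobase was 0.93, 1.02 and 1.60 in Control and 1.58, 1.56 and 2.04 with ICF. The groups overlapped, because Control replicate 3 lay above ICF replicates 1 and 2, while ICF was higher in all 3 pairs (by 0.65, 0.54 and 0.44). Replicate 3, the pair of libraries with the highest share assigned to no gene feature, had the highest ratio in each group.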
